A study of Saccharomyces cerevisiae with 6 samples.

Results

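The pericentromere of chromosome XII was taken here as the 40 kb of budding yeast sequence reaching 20 kb to either side of the centromere gap, which is the sequence between the innermost left-arm gene, DNM1, and the innermost right-arm gene, YLR001C. Its members were all listed bins of 20 bp on XII that start from 130776 to 170776 on build R64. There were 394 such bins of 14224 in the whole table, a choice made by position alone. The study used chromatin endogenous cleavage with sequencing (ChEC-seq), in which a protein fused to micrococcal nuclease (MNase) cuts the DNA beside it once calcium is added. The 6 samples were 3 ctf19-9A cultures and 3 wild-type (WT) cultures, each from a different zygote. Both genotypes carried Rec8 fused to 3xFLAG-MNase and a deletion of NDT80, which keeps cells from leaving meiotic prophase I. Diploid cells spent about 16 h in YP acetate and 4.5 h in 1% potassium acetate, and were cut for 5 min with 2 mM calcium chloride. The strain background is labelled X and Y without further explanation.

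Cohesin is a protein ring that holds sister chromatids together, and Rec8 is the subunit that closes this ring in meiosis. Ctf19 belongs to the inner kinetochore, the protein assembly built on the centromere, and its phosphorylated tail binds the cohesin loader; the 9A allele is known as one with alanines in place of phosphorylated residues. Cohesin loaded at a yeast centromere spreads into the flanking sequence and is known to gather where 2 genes point at each other, so the pericentromere is described below by arm, by gene and by convergent gene pair.

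Values were available only as the authors' comparison of the 2 genotypes, with no value for a single culture, so depth per sample is unknown and no spread between cultures can be shown. For each listed bin the table gives a log2 fold change with its p-value, and a false discovery rate (FDR) that was under 0.05 throughout; its standard error (SE) was derived from the fold change and the p-value. The direction of the fold change is not stated. The numerator is likely ctf19-9A and the denominator WT, given the known role of Ctf19, and a negative value then means less Rec8 cleavage in ctf19-9A than in WT. With the opposite reading every sign below turns. A bin that is not listed may have been untested or may have missed the threshold, and these cannot be told apart. The edited genes could not check the labels, since NDT80, REC8 and CTF19, all on other chromosomes, held 0 listed bins.

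Where Rec8 cleavage was called as changed in this pericentromere, the change was negative nearly throughout. Of the 394 listed bins, 390 (99.0%) were negative and 4 were positive. The negative bins covered 7.8 kb and took 19.5% of the 2000 bin positions in the window, against 0.925% of bin positions over all nuclear chromosomes. Among the 154927 bins that the table implies were tested in the whole genome, 3.60% were called negative and 5.58% positive. How many of the tested bins lay in this window is unknown. The window makes up 0.332% of the genome and held 6.99% of all negative bins. The same window on the other 15 chromosomes held 105 to 537 negative bins, so a density above that of the genome was not particular to XII.

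The negative changes were of moderate size. Their median log2 fold change was -0.65, a ratio of 0.638, and the middle of their distribution ran from -0.71 to -0.59 (quartiles), with SEs of 0.19 at the median. The values ran from -1.01 to -0.46, and 1 bin alone lay below -1. The lowest and the weakest of the 390 bins differed by -0.55, or 2.17 times the SE of that difference when errors were taken as independent. These are called bins, so their median overstates the average change of all bins in the window. At an FDR under 0.01, 151 negative bins were left. These were 38.7% of the called negative bins of the window, against 63.4% of those of the whole genome, where the stricter rule called 2.28% of tested bins. They took 7.55% of bin positions in the window, against 0.586% over all nuclear chromosomes. With a log2 size of at least 0.7, 119 were left, or 30.5% of the called negative bins of the window, against 54.2% of those of the whole genome, where this rule called 1.95% of tested bins. The window was thus rich in called bins, but a smaller part of them was strong than over the whole genome.

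**Figure D1:**
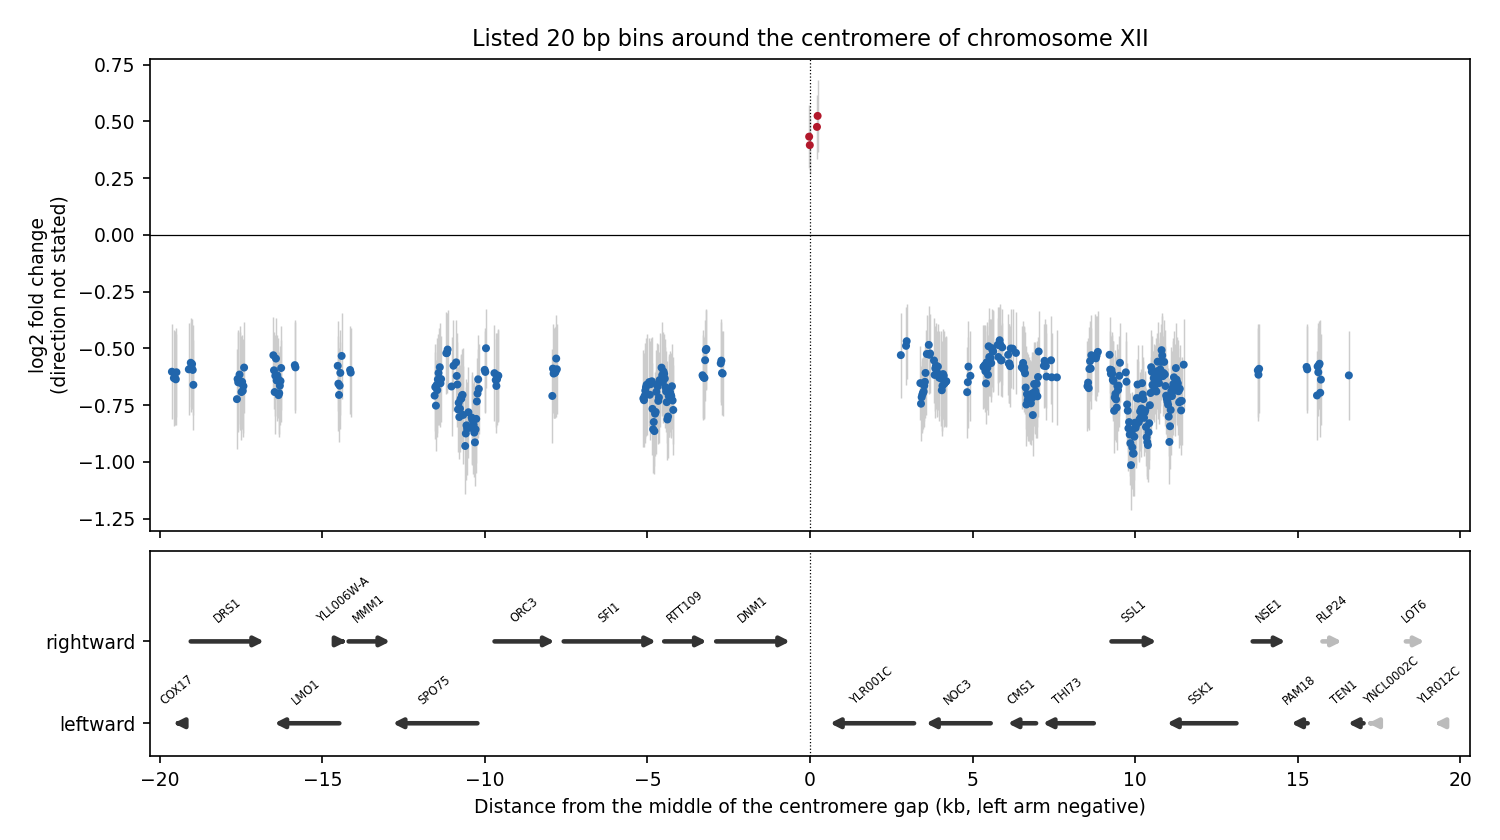
Listed bins of the pericentromere of chromosome XII by distance from the middle of the centromere gap (x axis, kb) and log2 fold change (y axis), with 1 SE as grey bars and genes as arrows below, grey where they held no listed bin. The 390 negative bins (blue) lie in separate patches on both arms and the 4 positive bins (red) at the centromere.

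The 2 arm sides held unequal numbers of called bins. The left side held 160 negative bins with a median of -0.65 (median SE 0.20), and the right side 230 with a median of -0.64 (median SE 0.18). An FDR under 0.01 was reached by 31.9% of the negative bins of the left arm and by 43.5% of those of the right arm. Bins of a side are neighbours from the same libraries, so no test was made between the sides.

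Beside the centromere lay an empty stretch, and beyond it the called bins came in bursts. No negative bin lay between 148100 and 153561, a stretch of 5.46 kb, so the nearest were 2.69 kb away on the left and 2.79 kb away on the right. From 2.5 to 5 kb the left side held 47 negative bins and the right side 37. From 5 to 7.5 kb the left side held 6 and the right side 64, the largest difference of any step. From 7.5 to 10 kb the numbers were 16 and 44. From 10 to 12.5 kb they were 46 and 72, the highest of any step on the right. The left side was thus patchy, with 2 dense steps of nearly equal size and few bins between them, and the right side dense from 2.5 to 12.5 kb.

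Farther out the sides changed places. From 12.5 to 15 kb the left side held 8 negative bins and the right side 3, and from 15 to 17.5 kb 20 and 10. From 17.5 to 20 kb the left side held 17 and the right side 0. The last negative bin on the right lay in TEN1, 16.6 kb from the centromere, and no listed bin of either sign followed for 13.7 kb, until a positive one at 181061 to 181080 (0.52, SE 0.17, in the authors' deposited table).

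**Figure D2:**
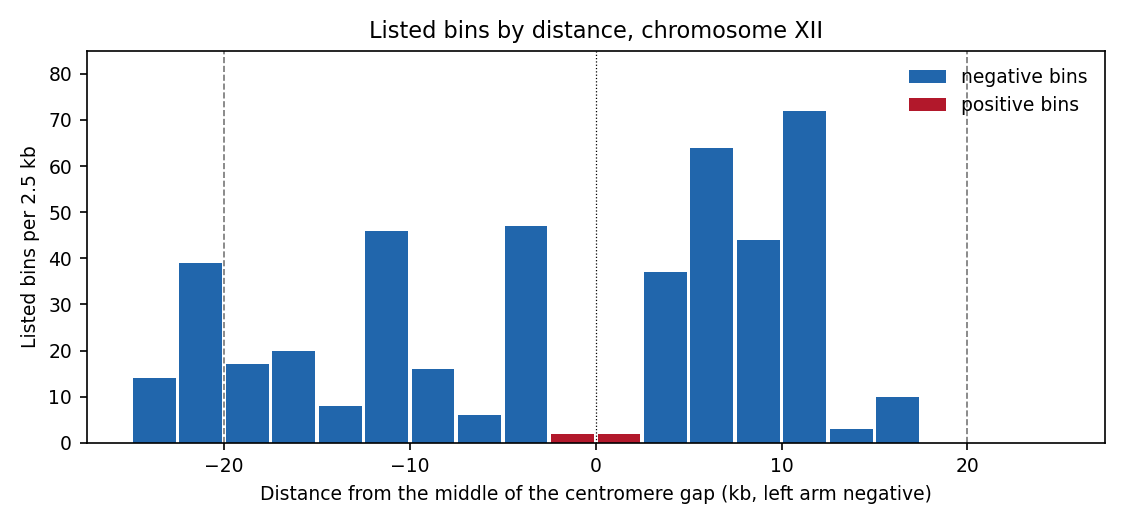
Number of listed bins (y axis) in steps of 2.5 kb from the middle of the centromere gap (x axis), negative bins in blue and positive bins in red; dashed lines mark the 20 kb limits. The right side peaks at 72 bins from 10 to 12.5 kb and is empty beyond 17.5 kb, while the left side goes on past its limit.

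Negative bins went on beyond the left limit of 20 kb, which itself fell in an empty stretch of 1.28 kb (129861 to 131140). In the outer 5 kb of the window on the left lay 37 negative bins with a median of -0.63, and in the 5 kb just outside lay 53 with a median of -0.64. Those outside were in PSR1, for a plasma membrane phosphatase (18 bins), in SOF1, for a protein of ribosome synthesis (32), and in YEH1, for a sterol ester hydrolase (3). The lowest of them was in SOF1 (128861 to 128880), at -0.88 with SE 0.18 and an FDR of 0.00012 in the authors' deposited table. With these, negative bins on the left reached 23.6 kb from the centromere. The next listed bin farther left was positive, at 121141 to 121160. On the right the outer 5 kb held 10 negative bins with a median of -0.60, and the 5 kb outside held none of either sign.

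Within the window, positive bins were found in the centromere gap alone. The gap between DNM1 and YLR001C (150164 to 151388) is 1225 bp long and held 4 positive and 0 negative bins, in 2 pairs. The authors' deposited table gave 0.43 (SE 0.14) for 150741 to 150760 and 0.40 (SE 0.13) for 150761 to 150780, with FDRs of 0.0279 and 0.0283. It gave 0.48 (SE 0.14) for 150981 to 151000 and 0.52 (SE 0.16) for 151001 to 151020, with FDRs of 0.0158 and 0.0185 in the authors' deposited table. The median of the 4 was 0.45, a ratio of 1.37. They did not differ among themselves beyond error, since the highest less the lowest was 0.13, or 0.639 times its SE. None had an FDR under 0.01. The position of the centromere within the gap was not given in the sources used here.

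Negative bins lay in 19 of the 23 genes centred in the window, in all 10 on the left side and in 9 of 13 on the right. The genes without a listed bin were RLP24, for a factor of large ribosomal subunit assembly, the tRNA gene YNCL0002C, LOT6, for a quinone reductase, and YLR012C, all 16 kb or more from the centromere. No gene held a positive bin. The 4 genes with the most, SSL1, SPO75, NOC3 and CMS1, held 170 of the 390 negative bins (43.6%), while 8 genes held fewer than 5 each. With an FDR under 0.01, 9 genes still held a bin.

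SSL1 and SSK1, a convergent pair 10 to 12 kb to the right, held the strongest change of the region. SSL1 encodes a subunit of TFIIH, which acts in transcription and in nucleotide excision repair. It spans 160049 to 161434 and held 62 negative bins that filled 89.5% of its length, with a median of -0.75. The lowest value of the window was in its body (160641 to 160660), at -1.01 with SE 0.20 and an FDR of 3.2e-05 in the authors' deposited table. Nearer its 3′ end lay the bin with the smallest FDR of the window (161161 to 161180), at -0.93 with SE 0.16 and an FDR of 3.6e-06 in the authors' deposited table. SSL1 was thus changed over nearly all its length, and the next highest share of length in the window was 66.2%, in CMS1.

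SSK1, for the response regulator of the osmotic stress pathway, spans 161755 to 163893. It held 23 negative bins, all on the 3′ side of its middle, with a median of -0.69. Its strongest bin (161821 to 161840) had -0.91 with SE 0.18 and an FDR of 8.4e-05 in the authors' deposited table. From 160481 to 161980 the 75 bins of SSL1, the gap and SSK1 were called without a break, the longest unbroken run of the window at 1.5 kb. The 5′ part of SSK1 held none, and the empty stretch from 162281 to 164540 covered 2.26 kb.

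SPO75, for a protein needed in spore formation, was the main site on the left side. The gene spans 137940 to 140546 and held 42 negative bins, 41 of them on the 5′ side of its middle, with a median of -0.72. Its strongest bin by FDR (140461 to 140480) had -0.91 with SE 0.19 and an FDR of 0.000182 in the authors' deposited table, and its lowest (140161 to 140180) had -0.93 with SE 0.21. The lowest bins of SSL1 and SPO75 differed by -0.08, or 0.293 times the SE of the difference. The 2 arms thus reached their lowest values at like distances, about 10 kb from the centromere, and these values were not distinguishable.

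SFI1 and RTT109 held the dense patch of the left side that lay nearest the centromere, with 11 sparser bins closer in, in the end of RTT109 and in DNM1. SFI1 encodes a centrin-binding protein of the spindle pole body, and RTT109 the acetyltransferase of histone H3 lysine 56. All 17 bins of SFI1 lay in the last part of the gene, from 86.2% of its length on, and its strongest (145981 to 146000) had -0.86 with SE 0.19 and an FDR of 0.000442 in the authors' deposited table. RTT109 held 21, of which 14 were on the 5′ side of its middle, and its strongest (146381 to 146400) had -0.81 with SE 0.18 and an FDR of 0.000464 in the authors' deposited table. Together with the gap between them, 42 bins filled 89.4% of a patch of 0.94 kb. The rest of SFI1 held no listed bin and lay in an empty stretch of 2.64 kb (143001 to 145640) that begins before the gene.

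On the right side, patches of called bins followed each other through NOC3, CMS1 and THI73, after 3 bins in YLR001C and 9 in the gap before NOC3. NOC3, needed in large ribosomal subunit assembly, held 37 negative bins with a median of -0.60. They covered 37.1% of its length, in separate patches spread from 1 end of the gene to the other. Its bin of smallest FDR (156181 to 156200) had -0.65 with SE 0.18 and an FDR of 0.00876 in the authors' deposited table. This was the 1 bin of the gene with an FDR under 0.01, while the lowest bin of NOC3 (155601 to 155620) had -0.69 with SE 0.20. CMS1, for a protein linked to pre-ribosomes, held 29 over 66.2% of its length, and its strongest (157621 to 157640) had -0.79 with SE 0.18 and an FDR of 0.000824 in the authors' deposited table. THI73, for a putative transporter, held 15 bins with a median of -0.59, the strongest (159341 to 159360) at -0.68 with SE 0.18 and an FDR of 0.00784 in the authors' deposited table. NOC3 thus had more called bins than CMS1, with a smaller median size (-0.60 against -0.67).

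On the left side, DRS1, LMO1 and ORC3 held fewer bins than SPO75, SFI1 or RTT109. DRS1, for an RNA helicase of ribosome synthesis, held 16. Its bin of smallest FDR had -0.69 (133321 to 133340, SE 0.20, FDR 0.0157) and its lowest -0.72 (133141 to 133160, SE 0.22) in the authors' deposited table. LMO1, a homologue of mammalian ELMO proteins, also held 16, of which 13 were on the 3′ side of its middle. Its bin of smallest FDR had -0.70 (134441 to 134460, SE 0.18, FDR 0.00439) and its lowest -0.71 (134421 to 134440, SE 0.18) in the authors' deposited table. ORC3, for a subunit of the origin recognition complex, held 9 that lay at its 2 ends, with the strongest at -0.71 (142841 to 142860; SE 0.21, FDR 0.0144) in the authors' deposited table. The interior of ORC3, 1.64 kb, was empty.

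Genes with 4 bins or fewer had values between -0.64 and -0.47. The bin given for each of them is that of smallest FDR. In DNM1, YLR001C and NSE1 this was not the lowest bin, which had -0.61, -0.53 and -0.62. All values of these genes were weaker than the window's median of -0.65, some by little, and the weakest called bin of the window had -0.46. COX17, for a copper chaperone of mitochondria, had -0.64 (131261 to 131280; SE 0.20, FDR 0.0262), in the authors' deposited table. DNM1, for the GTPase of mitochondrial fission, had 4 bins near its 5′ end with -0.61 at 148061 to 148080 (SE 0.18, FDR 0.0197) in the authors' deposited table. YLR001C, on the other side of the centromere, had 3 near its 5′ end with -0.47 at 153741 to 153760 (SE 0.16, FDR 0.0488) in the authors' deposited table. Both genes next to the centromere were thus empty in the parts that face it.

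The remaining genes of this kind lay farther out. In the authors' deposited table NSE1, for a subunit of the cohesin-related Smc5/6 complex, had -0.59 (164581 to 164600; SE 0.20, FDR 0.0367). PAM18, of the mitochondrial import motor, had -0.59 (166061 to 166080; SE 0.19, FDR 0.0312), also in the authors' deposited table. TEN1, of the complex that caps telomeres, held a single bin of -0.62 (167341 to 167360; SE 0.20, FDR 0.0286) in the authors' deposited table. MMM1, which tethers mitochondria to the endoplasmic reticulum, held 2 with -0.61 at 136641 to 136660 (SE 0.20, FDR 0.0304), and YLL006W-A 1 with -0.53 (136361 to 136380; SE 0.19, FDR 0.0497), both in the authors' deposited table.

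**Figure D3:**
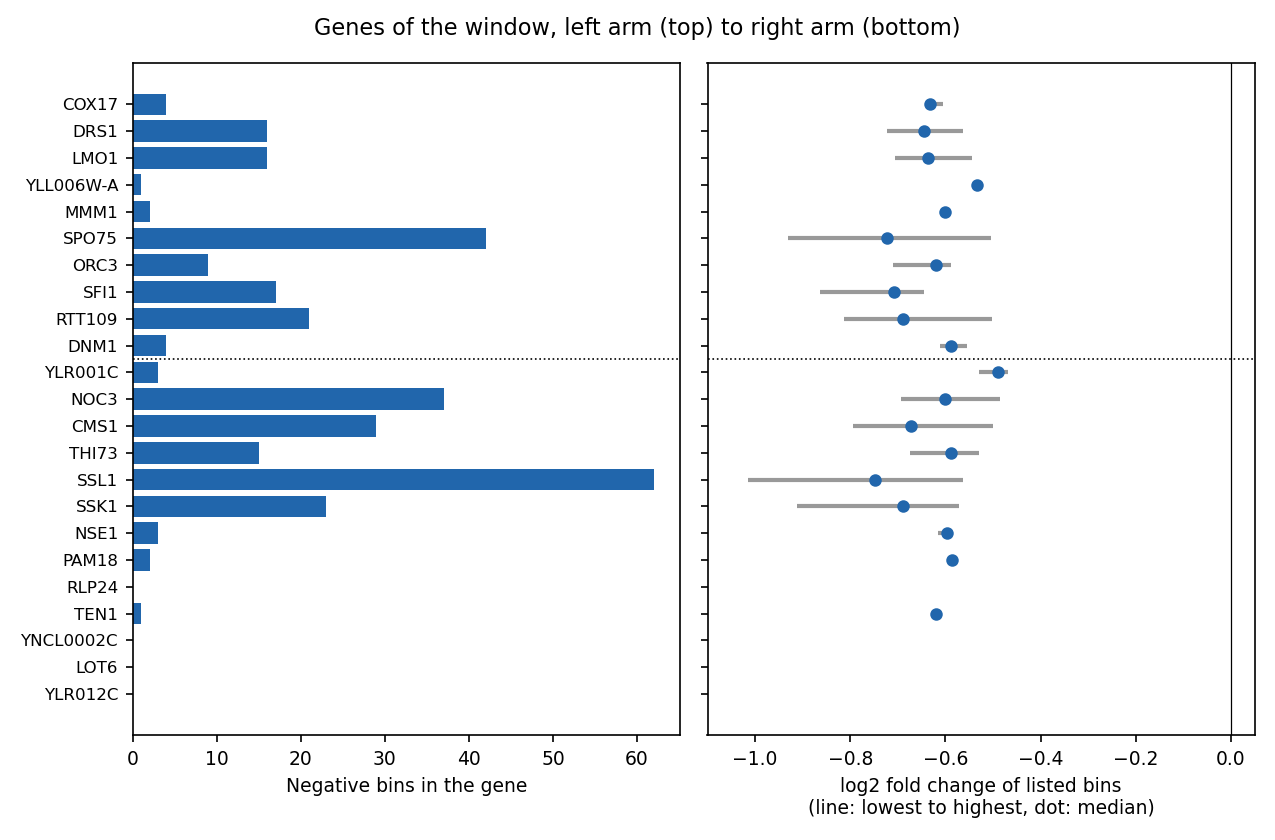
Negative bins per gene (left panel, count) and the log2 fold changes of those bins (right panel, dot at the median, line from the lowest to the highest) for the 23 genes of the window in chromosomal order, with the centromere at the dotted line. SSL1 leads with 62 bins and SPO75 has the most on the left arm with 42.

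By function, negative bins were found in every group of the gene lists drawn up for this region. The lists left out SPO75 (42 bins), LMO1 (16), YLR001C (3) and YLL006W-A (1), and also LOT6, YLR012C and YNCL0002C, which held none. All 6 genes of chromosome upkeep (ORC3, RTT109, NSE1, TEN1, SSL1 and SFI1) held a negative bin, 113 in total, of which SSL1 gave 62. Negative bins filled from 4.14% (TEN1) to 89.5% (SSL1) of the length of these genes. All 4 mitochondrial genes held one, 12 in total. These filled 38.1% of the length of COX17 and 3.12% to 7.89% of MMM1, DNM1 and PAM18. Of the 4 genes of ribosome synthesis in the window, 3 held negative bins, 82 in total, and RLP24 held none. The bins filled 14.2% of DRS1, 37.1% of NOC3 and 66.2% of CMS1. SSK1 was the 1 signalling gene and THI73 the 1 transport gene of the lists in the window, with 23 and 15 bins. With 19 of all 23 genes holding a negative bin, the numbers of genes with a bin stand near the background of the window. Over all gene bodies of the window 19.9% of positions were negative. The bin totals per group were not scaled to gene length, so they cannot be set against that share. The shares of single genes varied widely within the groups of several genes.

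Inside genes the called bins had no leaning to either end. Of 307 negative bins in genes, 153 lay on the 3′ side of the gene's middle and 154 on the 5′ side, so that the 3′ side held 49.8%. Of the 19 genes, 10 had bins on 1 side of the middle alone. This count says little, since 8 of them held fewer than 5 bins, mostly next to each other. Of the genes with more bins, SFI1 (17) and SSK1 (23) had all on the 3′ side, and SPO75 had all but 1 of 42 on the 5′ side. Within 300 bp of a gene's 3′ end lay 158 negative bins (40.5%), against 29.0% of positions in the window, and within 300 bp of a 5′ end 171 (43.8%), against 30.1%. Both gene ends were thus over-represented to a like degree. Some positions lie near both kinds of end.

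Gene bodies held 78.7% of the negative bins and 77.3% of the window's positions. Between genes the density of called bins differed by class. Tandem gaps, between genes of the same direction, held 41 negative bins on 32.5% of their positions. Convergent gaps held 18 on 13.8% of positions, and divergent gaps 24 on 12.1%. The convergent positions include the centromere gap, which is 1225 bp long and held 0 negative bins, so the other convergent gaps were denser than 13.8%. Of the tandem gaps, that of SFI1 and RTT109 held 11 negative bins over 88.4% of its length, that of YLR001C and NOC3 held 9, and that of NOC3 and CMS1 held 12. The strongest of these by FDR lay between YLR001C and NOC3 (154201 to 154220), at -0.72 with SE 0.16 and an FDR of 0.00052 in the authors' deposited table.

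Of the 7 convergent gene pairs in the window, 2 had negative bins between their 3′ ends. The gap of SSL1 and SSK1 (161435 to 161754) was 320 bp long, and all of its 16 bins were negative, with a median of -0.61. The gap of DRS1 and LMO1 (133988 to 134301) held 2, at -0.53 (SE 0.17) and -0.60 (SE 0.17) in the authors' deposited table, both at its LMO1 side. A further 11 bins with a median of -0.64 lay in the last 500 bp of LMO1, and none lay in the last 500 bp of DRS1. The change at this pair was thus on 1 side.

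Between SSL1 and SSK1 the values were nearer to 0 than in the gene ends around it. The last 500 bp of SSL1 had a median of -0.72 over 25 bins, the gap -0.61 over 16 and the last 500 bp of SSK1 -0.70 over 22. The weakest bin of the gap (161581 to 161600) had -0.51 with SE 0.16 in the authors' deposited table. The strongest SSL1 bin by FDR differed from it by -0.42 (1.81 times the SE of the difference) and the lowest SSK1 bin by -0.40 (1.64 times). These bins were picked as extremes, and the dip did not reach 2 times its SE.

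The other 5 convergent gaps held no negative bin. The gap of DNM1 and YLR001C is the one that holds the centromere and the 4 positive bins. The gap of MMM1 and SPO75 (137867 to 137939) had no listed bin within 500 bp of its middle, and it lies in an empty stretch of 2.56 kb. The gap of NSE1 and PAM18 (165403 to 165576) had none within 500 bp, and that of RLP24 and TEN1 (167137 to 167319) had 1, in TEN1. The gap of LOT6 and YLR012C (169679 to 169981), the farthest out, had none. Called bins of this pericentromere were thus at convergent gaps in 1 strong case, at its SSL1 and SSK1 pair, and the patches at SPO75, at SFI1 and RTT109 and at CMS1 lay elsewhere.

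**Figure D4:**
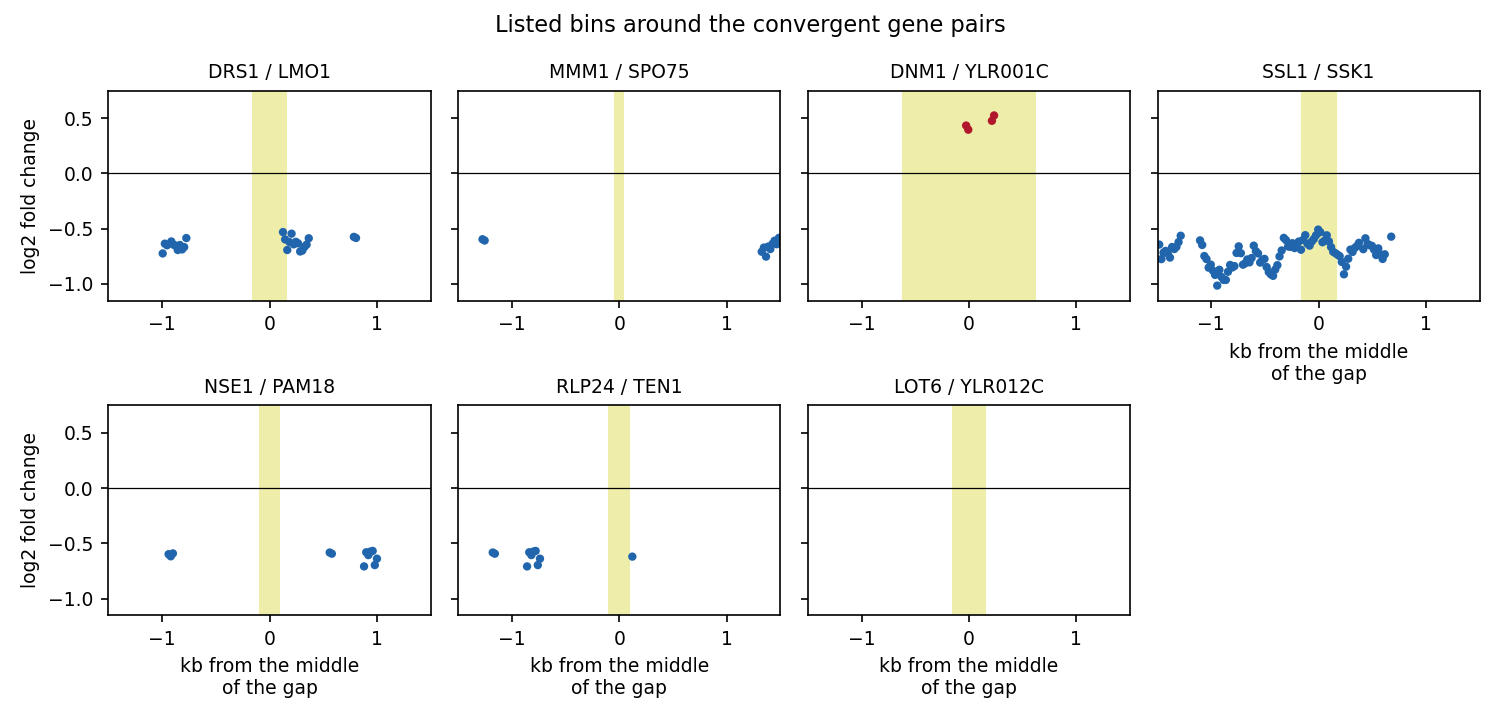
Listed bins within 1.5 kb of the middle of each of the 7 convergent gaps (x axis, kb) by log2 fold change (y axis), with the gap shaded. The gap of SSL1 and SSK1 is filled with negative bins, that of DNM1 and YLR001C holds the 4 positive bins, and 4 gaps are empty.

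Set against the same window on the other 15 chromosomes, XII had a broad and shallow pattern. It held 390 negative bins, the fifth most, against 105 to 537 on the others with a median of 327. Its median log2 fold change was -0.65, against -0.94 to -0.56 on the others with a median of -0.76, and 10 of them had a lower value. Its lowest bin (-1.01) was less extreme than that of 11 others. Of its negative bins 38.7% had an FDR under 0.01, against up to 88.1% on the others, where only III (14.95%) and IX (22.7%) had a smaller share. These are descriptions of 16 regions, and no test of a difference between chromosomes was made.

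More of the negative bins of XII lay beyond 10 kb, and they lay in more genes. Beyond 10 kb XII held 176 negative bins, against 0 to 132 on the others, and with an FDR under 0.01 there were 78, against 0 to 71. Their reach within 30 kb was not the longest on either arm. It was 23.6 kb on the left, against 4.72 to 24.3 kb on the others, and 16.6 kb on the right, against 4.30 to 29.6 kb. In share of negative bins beyond 10 kb, 45.1% on XII stood below the 66.2% of IX and above the other 14. The share of genes with a negative bin was 82.6% on XII and 13.6% to 59.1% on the others. This lead shrank with a stricter count. With at least 5 negative bins per gene the share was 47.8% on XII and 13.6% to 52.6% on the others. With an FDR under 0.01 it was 39.1% on XII and 7.41% to 42.3% on the others.

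By position within genes and gaps, and with its centromere gap counted as convergent, XII was at the low end of the 16 for convergent sites. Its convergent gaps were negative on 13.8% of positions, against 1.56% to 63.9% on the others with a median of 27.3%. The 1225 bp centromere gap of XII, with 0 negative bins, is part of these positions and lowers the share. A ranking without centromere gaps was not made. Its tandem gaps were negative on 32.5%, against 0 to 39.1% with a median of 7.43%. The share of its gene bins on the 3′ side of the middle, 49.8%, was above that of XIII alone (48.4%), and the others reached up to 90.1%. Its longest unbroken run, 1.5 kb, was shorter than that of 12 others, whose longest was 3.8 kb. Bins next to each other are not independent, and these shares rest on few genes and gaps.

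**Figure D5:**
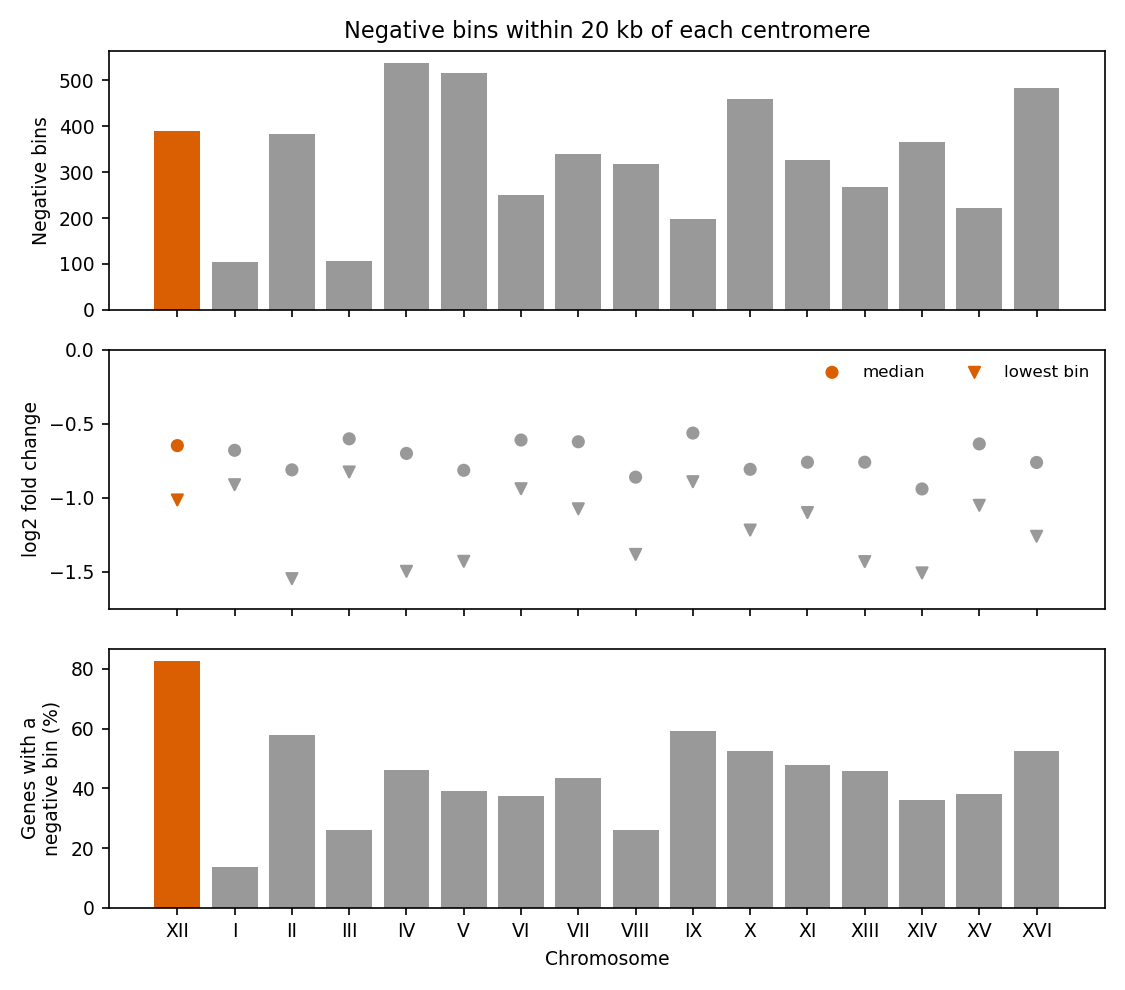
Negative bins within 20 kb of each centromere (top, count), their median and lowest log2 fold change (middle) and the share of genes holding a negative bin (bottom, percent), for XII (orange) and the other 15 chromosomes (grey). XII has 390 negative bins, a median of -0.65 and a share of genes of 82.6%.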

How the data were processed

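The single table used here is the authors' comparison of 3 ctf19-9A and 3 WT samples. Per the submitters' processing notes, the tools were Bowtie2 2.5.0, DESeq2 (no version), FastQC 0.11.9 and deepTools 3.4.3, with builds R64 and sacCer3; what each did, and with which filters, is not stated there. Per the file headers, the deposited values per bin are p-value, FDR and log2 fold change, the last in a plain and a shrunken form. All listed FDRs were under 0.05.

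SEs were the size of the log2 fold change over the normal deviate of its p-value. The number of tested bins was taken from the last bin's rank, p-value and FDR; Benjamini-Hochberg values rebuilt with it differed from the deposited FDRs by at most 1.8e-05 percent. Both steps were tested on data simulated with the same formulas, which checks the code alone. That the deposited p-values come from a normal deviate was assumed. Genes came from the RefSeq table of R64, strand and arm from systematic names. A bin belongs to the gene or gap that holds its middle. Tests on counts had been planned for files with sample values, and the authors' FDR was used in their place. Planned GC content and sequences were not used here, as no genome was used. The window, gene lists and naming rule (the bin of smallest FDR per gene, the lowest bins, all positive bins, all convergent pairs) were chosen with earlier results of these data known. Python 3.11.15, pandas 2.3.3, NumPy 2.4.6 and SciPy 1.17.1 were used.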

Additional observations from a re-analysis of the deposited data

How the results depend on the processing

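Of 46 values recomputed under other settings, 22 stayed within 1.5 times of the reported count or length, within the median SE of the reported median, or within the 95% binomial interval of the reported share. These settings could not test the direction of change, since bins were sorted by sign before each value was computed. An FDR under 0.01 left 151 negative bins (51 left, 100 on the right), 0 positive ones, 9 genes, 1 convergent pair and 86.1% of negative bins in gene bodies. A log2 size of at least 0.7 left 119 (50 and 69), 0 positive ones, 9 genes, 1 convergent pair and 92.4%. A window of 10 kb on either side left 214 negative bins (69 and 145), 9 genes and 0 convergent pairs. Fewer bins or less sequence enter under each of these by construction. With at least 5 bins per gene, 11 genes were left. The longest group of negative bins was 2.98 kb with starts at most 500 bp apart, 1.8 kb with 100 bp and 8.72 kb with 1000 bp. Settings added after seeing the data gave 56 bins within 300 bp of a 3′ end at an FDR under 0.01 and 86 in the 10 kb window. The median was -0.47 with the authors' shrunken values. No paired analysis was possible because the deposited table lists no values by sample, and for the same reason no replicate could be left out. Depth is unknown, so what it limits cannot be stated.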
